A study of Mus musculus with 34 samples.

Results

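The response of sensory neurons to a sciatic nerve crush was described in the 9 control animals in which ATF3 was intact, across every gene that the tissue expressed. The animals were those labelled ATF3 wt, and the crushed side of each was compared with its own uncrushed side. They are 9 of the 17 animals of the study and give 18 of its 34 libraries. The study asked what the transcription factor ATF3 contributes to the response of dorsal root ganglion neurons to a nerve crush, with a view to growth-inducing B2-SINE transcripts, which were not analysed here. Its other 8 animals carried Adv-Cre and a homozygous floxed ATF3 (ATF3 cKO) and are used only where a difference from them was tested.

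All animals were mice aged 8 to 12 weeks from 1 colony. The left sciatic nerve was crushed, and 3 days later the L4 to L6 ganglia of the crushed (injured) and the intact (naive) side were taken, dissociated, and enriched for neurons over 20% Percoll before total RNA was extracted. Of the 9 controls, 4 were labelled Adv-Cre- with 1 floxed allele (ATF3-fl_het), 2 were Adv-Cre- with wild-type ATF3, and 3 were Adv-Cre+ with wild-type ATF3. Advillin drives Cre in sensory neurons, and the floxed allele carries loxP sites around exon 3. All 6 Cre-negative controls were female and all 3 Cre-positive controls were male, so sex and Cre cannot be told apart. The naive side is the other side of an operated animal and not an unoperated mouse.

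The cell bodies of sensory neurons lie in the dorsal root ganglia and send a branch into the peripheral nerve and another into the spinal cord. When the peripheral branch is crushed, signals travel back along the axon to the nucleus, and the neuron switches from a state geared to sensing and transmission to one geared to regrowth. ATF3 and JUN, members of the bZIP family that bind AP-1 sites, are classical early factors of this switch. Satellite glia wrap the cell bodies, and macrophages gather around them after nerve injury. In RNA from a mixed cell pellet, fewer cells of a type and less RNA per cell cannot be told apart.

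The 18 libraries held 35732193 to 73925627 counts, with medians of 54645966 on the naive and 61165248 on the injured side. Levels are in CPM, counts scaled to library size with TMM factors, and where 3 levels are given they are the lowest, the median and the highest of the 9 animals. Log2 fold changes are injured over naive, and a gene passed when its adjusted p from edgeR's paired quasi-likelihood test was under 0.05. The labelled tissue was checked first. The 19 pan-neuronal markers summed to 14830 to 18540 CPM on the naive and 15350 to 22620 CPM on the injured side, and 0 of them were at 0. Of these markers 3 rose and 5 fell (3 to 8 fell when 1 animal was left out).

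A few libraries stood apart. The animal wt-150 is labelled Cre-negative, but its Avil level (494 CPM naive, 509 CPM injured) lay among those of the Cre-positive controls (482 to 549 CPM) and below those of the other Cre-negative controls (784 to 1012 CPM). The injured library of wt-176 was the smallest of the 18. Without wt-150, 6065 genes passed, and without wt-176 6875, against 6798 with all 9 animals. Counts of 3 repeat-rich ribosomal loci took a lower share of the libraries in wt-155, wt-172 and wt-175 than in the other 6 animals (5.02% to 10.3% against 13.7% to 20.0% of the counts). Within those 3 animals 2059 genes passed, 1271 of them higher and 788 lower, and within the other 6 animals 2431 passed, 1398 higher and 1033 lower. Of the calls within the 3 animals, 93.8% were also calls with all 9, and of those within the 6 animals, 99.5%.

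The crush changed the levels of many genes, mostly by small amounts. Of 18288 genes tested, 6798 passed (37.2%), of which 3478 were higher (19.0%) and 3320 lower (18.2%) on the injured side. The numbers of rises and falls were close, but their sizes were not. Of the rises, 637 reached 2-fold (3.48% of the genes tested), and 79 reached 8-fold. Of the falls, 56 reached 2-fold (0.306%), and 0 reached 8-fold. The 2 sides did not overlap for 615 higher genes (3.36%) and for 258 lower genes (1.41%). All 9 animals moved upward for 2063 genes (11.3%) and downward for 2021 genes (11.1%).

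**Figure D1:**
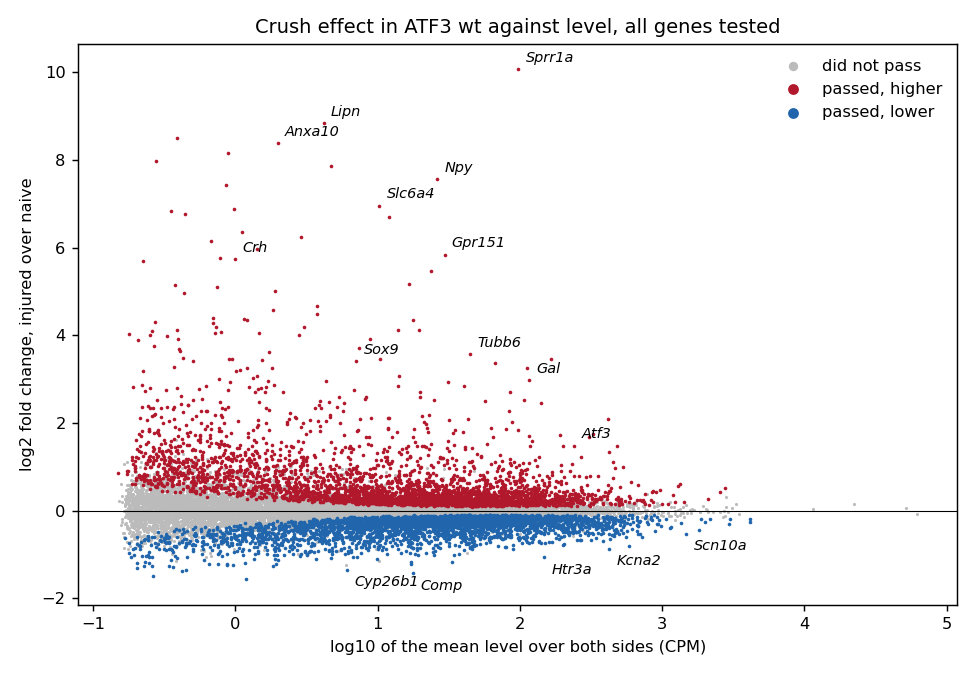
Log2 fold change of injured over naive (vertical axis) against the log10 of the mean level over both sides in CPM (horizontal axis) for every gene tested, with genes that passed coloured by direction. The large rises sit mostly at low levels: 383 of the 637 rises of at least 2-fold started below 1 CPM. The falls as a whole spread over well-expressed genes and seldom pass 1 on the log2 scale. Of the 56 falls of at least 2-fold, 24 started below 1 CPM.

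Many of the large rises came from genes that were close to silent in the naive ganglion. Their median level went from 0.554 to 2.01 CPM, and 60.1% of them were below 1 CPM on the naive side, against 21.1% of all genes tested. The falls came more often from abundant genes. Among protein-coding genes sorted into 5 equal groups by their mean level over both sides, the share that fell was 9.40% in the lowest group and 17.6%, 21.0%, 24.8% and 30.8% in the next ones. The share that rose was between 18.4% and 22.1% throughout, but 304 of the rises of at least 2-fold lay in the lowest group and 42 in the highest. Falls of at least 2-fold lay low as well, with 30 in the lowest group and 1 in the highest. Over all 56 such falls the median naive level was 1.28 CPM, and 42.9% were below 1 CPM. Small changes are easier to detect in genes with many counts, and the part of depth in this gradient was not tested.

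Gene length followed a similar gradient. Of protein-coding genes with a span of up to 8.4 kb, 21.9% rose and 14.6% fell. Of those that span 78.9 kb or more, 18.7% rose and 30.7% fell. The median naive level also differed between these groups, at 8.44 and 26.8 CPM, and its part in the difference was not tested. Seen as a share of all counts, the 637 genes that rose at least 2-fold went from 0.493% ± 0.0216 to 1.55% ± 0.586 (SD, n = 9). The 3320 genes that fell went from 27.4% ± 1.09 to 22.3% ± 2.44. These shares were computed over the genes that the test had called, so they describe the size of the change and are no further support for it.

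The animals responded to different degrees. For each animal, genes were chosen from the fit to the other 8, and its median log2 ratio was taken. Over the rises of at least 2-fold this median was lowest in wt-141, at 0.71, followed by wt-155 at 1.04. It was highest in wt-172, at 2.45, and in wt-176, at 2.29, with the other 5 animals between 1.24 and 1.70. Over the falls of at least 1.5-fold the order was similar, from -0.33 in wt-141 and -0.36 in wt-155 to -1.05 in wt-172 and -1.52 in wt-176. Both the weakest and the strongest responders included a male and a female. In wt-141, 76.1% of the chosen rises were higher on its injured side, while in the other 8 animals the share was 89.5% to 99.6%.

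**Figure D2:**
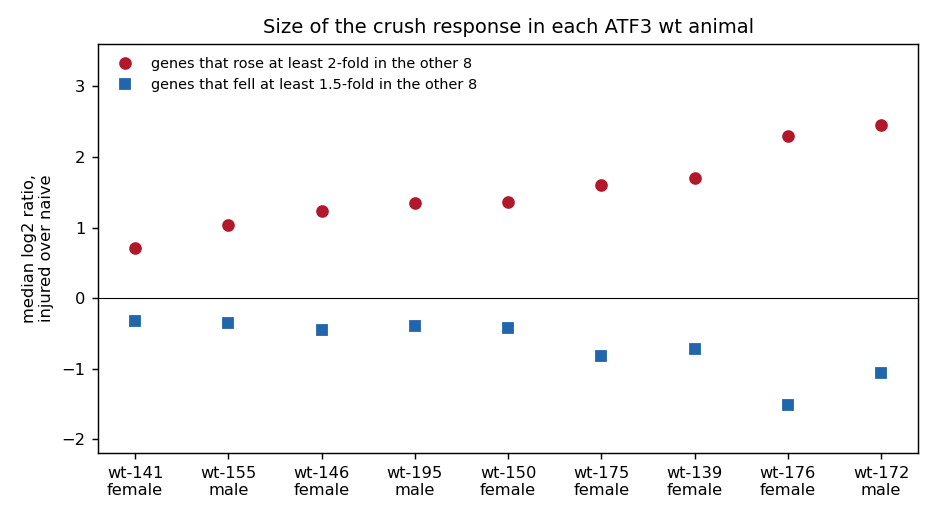
Median log2 ratio of injured over naive in each of the 9 animals, over genes that rose at least 2-fold and genes that fell at least 1.5-fold in the fit without that animal. Every animal lies above 0 for the rises (0.71 to 2.45) and below 0 for the falls (-0.33 to -1.52), with wt-141 closest to 0 on both and wt-172 and wt-176 farthest.

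Among the 15 largest rises that reached 5 CPM, genes of several unrelated functions went from low levels to clear expression in every animal. Sprr1a, a cornified-envelope protein that promotes axon outgrowth in injured sensory neurons (ENSMUSG00000050359, chromosome 3, 92483952 to 92485895 on GRCm38), was at 0.0391, 0.140 and 0.365 CPM on the naive side and at 73.3, 139.6 and 503 CPM on the injured side. Its log2 fold change was 10.07 (adjusted p = 2.77e-09, SE 0.26). The promoters of 4 genes that rose at least 8-fold are shown here because each holds the AP-1 site that FOS and JUN dimers bind, TGANTCA, and it lies within 250 bases of the start in all of them. The sequences are RefSeq's for GRCm38.p6, written 5′ to 3′ on the gene's strand and ending at the base before the start, with the motif in capitals.

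Sprr1a (chr3:92485882-92486131, minus strand): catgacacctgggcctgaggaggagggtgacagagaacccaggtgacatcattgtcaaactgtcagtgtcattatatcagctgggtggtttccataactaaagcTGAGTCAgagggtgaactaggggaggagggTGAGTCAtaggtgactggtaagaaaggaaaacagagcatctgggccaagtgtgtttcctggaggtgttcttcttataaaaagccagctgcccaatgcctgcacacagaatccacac

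Lipn (chr19:34067108-34067357, plus strand): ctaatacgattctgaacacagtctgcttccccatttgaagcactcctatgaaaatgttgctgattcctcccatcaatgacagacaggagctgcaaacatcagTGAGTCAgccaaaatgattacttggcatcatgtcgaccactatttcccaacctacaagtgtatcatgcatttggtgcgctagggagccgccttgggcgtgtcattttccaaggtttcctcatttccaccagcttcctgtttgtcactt

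Nts (chr10:102490419-102490668, minus strand): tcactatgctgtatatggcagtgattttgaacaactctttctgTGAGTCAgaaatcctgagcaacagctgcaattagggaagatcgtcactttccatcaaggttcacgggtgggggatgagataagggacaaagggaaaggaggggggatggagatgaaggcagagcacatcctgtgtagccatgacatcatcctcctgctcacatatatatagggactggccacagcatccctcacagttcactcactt

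Anxa10 (chr8:62123194-62123443, minus strand): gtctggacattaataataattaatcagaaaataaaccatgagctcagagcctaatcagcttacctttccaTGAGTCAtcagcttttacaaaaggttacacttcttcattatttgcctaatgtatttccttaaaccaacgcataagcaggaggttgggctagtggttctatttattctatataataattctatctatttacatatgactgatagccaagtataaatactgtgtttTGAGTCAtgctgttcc

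The Sprr1a window holds the motif in 2 places, the nearer 116 bases before the start, the Lipn window at 148, the Nts window at 207, and the Anxa10 window at 180 and 16. Windows from 250 bases before to 50 after the start were read for 12222 of the genes tested, on both strands, and TGANTCA was in 5.08% of them. It was in 24.1% of the 54 windows of genes that rose at least 8-fold (13 windows) and in 14.8% of the 420 windows of genes that rose at least 2-fold (62 windows). It was in 5.70% of the windows of smaller rises and in 5.35% of those of falls of at least 1.5-fold. Windows of the large rises were also poorer in G and C, with a median of 56.0% at 2-fold and 53.5% at 8-fold against 60.7% overall. Among windows below 60.7%, the motif was in 7.19% of all, in 19.3% of the rises of at least 2-fold, and in 31.7% of those of at least 8-fold. Among windows at or above it, the motif was in 2.99% of all, in 5.19% of the rises of at least 2-fold, and in 0 of 13 windows of those of at least 8-fold. Of the 179 windows of genes that rose at least 2-fold and more than in the ATF3 cKO animals, 12.3% held it.

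Other motifs were read in the same windows. The CRE motif TGACGTCA was in 3.10% of all windows and in 1.43% of those of rises of at least 2-fold. The motif TGATGCAA, which ATF4 binds together with C/EBP partners, was in 0.573% and 1.67%, the latter 7 windows, and in 1 of the 54 windows of rises of at least 8-fold. The STAT motif TTCNNNGAA was in 6.78% and 9.29%. These are matches of letters and say nothing of what was bound.

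Several of the strongest rises were transport and signalling genes. Slc6a4, the serotonin transporter, was at 0.0368, 0.158 and 0.209 CPM naive and 7.79, 14.0 and 49.5 CPM injured, a log2 fold change of 6.96 (adjusted p = 8.48e-08, SE 0.27). Cckbr, a receptor for cholecystokinin and gastrin, went from a median of 0.129 to 15.9 CPM, and Gpr151, an orphan receptor of injured sensory neurons, from a median of 0.925 to 40.5 CPM. No naive library reached the lowest injured one for any of these 3 receptors and transporters. Fgf3, a secreted growth factor, was at 0, 0.0196 and 0.122 CPM naive and 3.495, 8.11 and 24.4 CPM injured. Lipn, an acid lipase known from keratinocytes, had 8 counts over all 9 naive libraries and 4273 over the injured ones.

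Others of the 15 covered proteases, enzymes and regulators. Ecel1, an endopeptidase-like membrane protein induced by nerve damage, rose by 5.47 on the log2 scale, from a median of 0.899 to 42.1 CPM. Car3, a carbonic anhydrase best known from muscle, rose by 5.18, and Tmem88b, a membrane protein, by 4.36. Igfn1 (log2 fold change 6.25), Wfdc3 (4.67), Fst (4.12), Npy (7.57) and Nts (4.12) also rose, and in each of the rises named here the sides did not overlap. Of 34 known regeneration-associated genes 32 rose and 0 fell, with a median of 1.94, and the list was chosen with such results known.

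The 15 largest falls were taken by the same rule, among genes above 5 CPM that moved the same way in every animal. They were led by receptors and secreted factors, and were all smaller than any of those rises. Comp, a cartilage matrix protein, was at 14.8, 24.2 and 33.6 CPM naive and 2.39, 9.74 and 21.2 CPM injured, a change of -1.43 (adjusted p = 0.00199, SE 0.27). Cyp26b1, a retinoic acid hydroxylase, fell by 1.35 in log2 terms, from a median of 8.81 to 3.21 CPM. Nicotinic and serotonin receptor subunits made up 5 of the 15. Htr3a, the principal subunit of the serotonin-gated channel, was at 163.3, 174 and 251 CPM naive and 37.5, 97.0 and 157 CPM injured and fell by 1.07 (SE 0.19, adjusted p = 0.00152). Its partner Htr3b fell by 1.16, and the nicotinic subunits Chrnb3, Chrnb4 and Chrna6 by 1.21, 1.18 and 1.02. The 2 sides did not overlap for Htr3a, Htr3b, Chrnb3 and Rem2, an inhibitor of calcium channels that fell by 1.11, and overlapped for the other 11.

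Oprd1, the delta opioid receptor, fell by 0.99 (20.2 to 28.0 CPM in naive and 7.21 to 20.8 CPM in injured libraries), and Adra2c, an adrenergic autoreceptor, by 1.00. Sema5b, a repellent guidance cue, Mrap2, an accessory protein of melanocortin receptors, Glb1l2, Ssc5d and C1qtnf7 fell by 1.08, 1.06, 1.06, 1.00 and 0.99. For 3 of the falls the call rested on single animals. Chrnb4 had an adjusted p of 0.0511, 0.0514, 0.0793 and 0.0841 without wt-139, wt-141, wt-172 or wt-175. Mrap2 had 0.0774 without wt-172, 0.0753 without wt-175 and 0.0521 without wt-176, and C1qtnf7 0.0581, 0.0925 and 0.0962 without wt-139, wt-172 or wt-175.

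**Figure D3:**
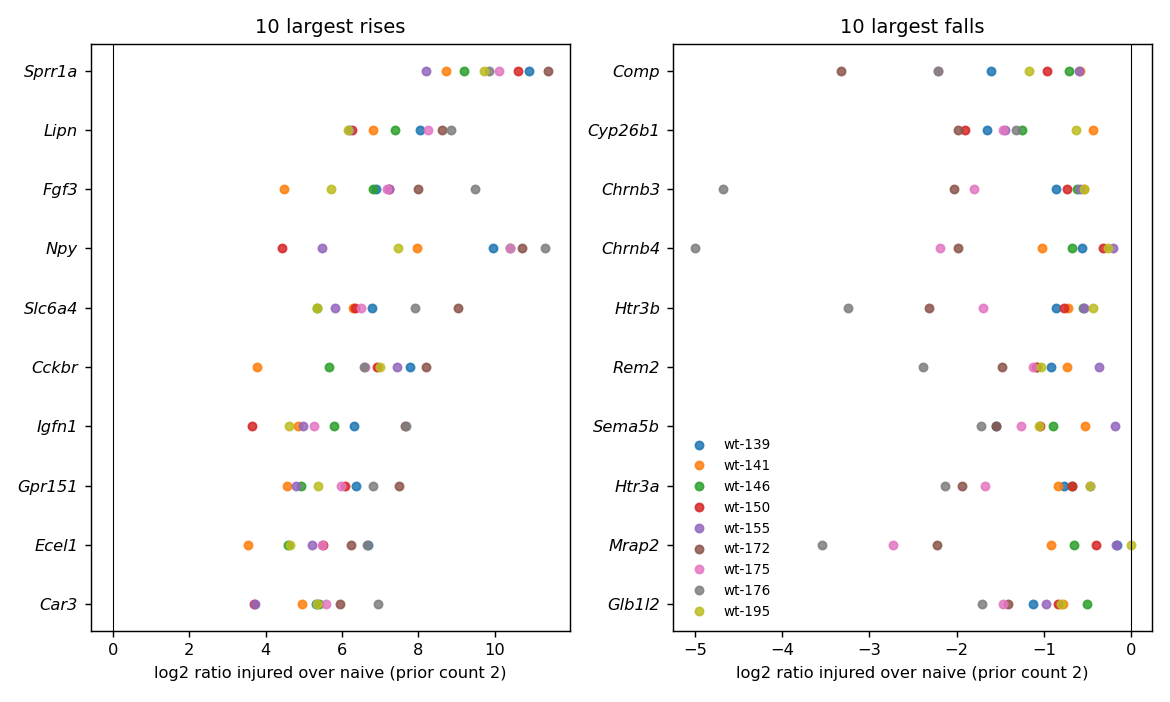
Log2 ratio of injured over naive (horizontal axis) for the 10 largest rises (left) and the 10 largest falls (right), with 1 point per animal, coloured by animal. The genes were chosen to move the same way in 9 of 9 animals, so the shared side of 0 was fixed by the choice. For Chrnb3 and Chrnb4, wt-176 lies lowest, apart from the other animals.

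Transcription factors moved in both directions, and most of those that specify sensory neurons fell. Atf3 itself (ENSMUSG00000026628, chromosome 1, 191170296 to 191218039) was at 74.7, 121 and 180.0 CPM on the naive and 169, 331 and 639.6 CPM on the injured side, a log2 fold change of 1.48 (adjusted p = 0.000457, SE 0.21). It rose in all 9 animals, but its naive level was not low and the highest naive library lay above the lowest injured one. Of 46 bZIP factors tested, 17 rose and 8 fell, with a median of 0.11 on the log2 scale against 0.02 for all genes. Bach1, a repressor of haem oxygenase and other stress genes, rose by 1.42 and Crem, a cAMP response modulator, by 0.97, both with sides that did not overlap. Fosl1, an AP-1 partner, rose by 1.53, Batf3 by 2.44 from a median of 0.117 CPM, and Nfil3 by 0.98. Jun, already at 226, 329 and 423 CPM naive, rose by 0.44 (SE 0.11, adjusted p = 0.0108) in 8 of 9 animals. Fosb and Mafa fell, by 0.46 and 1.00. Other AP-1 members fell too, Fos by 0.32 (adjusted p = 0.00351) and Junb by 0.23 (adjusted p = 0.0424), and were named after their values were seen.

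Sox9 and Sox11 were the strongest among 31 SOX, KLF and EGR factors, of which 6 rose (19.4%, against 19.0% of all genes tested) and 4 fell (1 fell without wt-139). Sox9, a factor of glia and of cartilage, was at 0.790, 0.973 and 1.67 CPM naive and 4.80, 9.22 and 36.03 CPM injured, a log2 fold change of 3.41 (adjusted p = 3.26e-05, SE 0.31). Sox11, which promotes axon growth, was at 18.5, 28.8 and 37.7 CPM naive and 91.1, 135 and 354 CPM injured (2.52). Klf6 and Klf7, which support axon growth, rose by 0.70 and 0.25. Of 21 STAT, SMAD and IRF factors 8 rose and 6 fell. Smad1, the BMP effector needed for sensory axon growth, rose by 0.71 with sides that did not overlap, and Stat5a by 1.09. The inhibitory Smad7 and Smad6 fell by 0.68 and 0.94.

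Of 33 factors that specify sensory neurons, 20 fell and 1 rose, with a median of -0.36. Esrrg, an orphan nuclear receptor of large-diameter sensory neurons, was at 16.9, 26.3 and 32.4 CPM naive and 10.2, 13.2 and 19.7 CPM injured, a change of -0.86 (adjusted p = 3.48e-06, SE 0.06). Its relative Esrrb fell by 1.01 and Etv1, a factor of proprioceptors, by 0.82. Hoxd1 and Bcl11b, linked to nociceptors, fell by 0.96 and 0.58 with sides that did not overlap. Etv5 was the single rise (0.13), and its adjusted p was 0.0656, 0.102, 0.0583 and 0.0758 without wt-139, wt-155, wt-175 or wt-195. Of 32 Hox genes tested, 0 rose and 9 fell (14 without wt-176), among them Hoxb6, from 4.36 to 6.96 CPM in naive and 2.93 to 4.98 CPM in injured libraries, by 0.63. Of 36 nuclear receptors 4 rose (2 when wt-155, wt-172, wt-175 or wt-176 was left out) and 15 fell, with Ppard, a lipid sensor, at 0.51 among the rises.

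Of 26 neuropeptide genes tested, 10 rose and 8 fell (5 fell without wt-139, wt-172 or wt-175). Gal, galanin, was at 11.0, 21.6 and 41.8 CPM naive and 94.1, 141.1 and 564 CPM injured, a log2 fold change of 2.98 (adjusted p = 0.000276, SE 0.38). Npy, neuropeptide Y, was at 0, 0.0190 and 1.23 CPM naive and 21.5, 45.5 and 134 CPM injured, and Nts, neurotensin, at 1.04, 2.29 and 3.12 and 18.7, 34.0 and 61.0 CPM. All 3 were higher in every injured library than in any naive one. The stress hormone Crh was at 0, 0.0225 and 0.0948 CPM naive and 0.625, 1.21 and 5.19 CPM injured, its relative Ucn went from a median of 0.0175 to 1.3003 CPM, and Grp, a peptide of itch circuits, from a median of 0.0978 to 1.53 CPM.

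Both major nociceptor peptides and 3 granins, which package peptides into vesicles, fell. Calca, which encodes CGRP, was at 521, 753 and 939 CPM naive and 377, 548 and 811 CPM injured, a fall of 0.34 on the log2 scale (adjusted p = 0.0111). Tac1, the substance P precursor, fell by 0.71 (adjusted p = 0.0313), which rose to 0.0606, 0.0745 and 0.0761 without wt-139, wt-172 or wt-175. The granins Chga, Chgb and Scg2 fell by 0.43, 0.22 and 0.52. Of 39 peptide and hormone receptors 9 rose and 15 fell. Cckar joined Cckbr among the rises, from 16.7 to 24.7 CPM in naive and 42.8 to 98.8 CPM in injured libraries (1.42), so both cholecystokinin receptors rose. Ntsr2, a neurotensin receptor, fell by 0.93 while its ligand rose.

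Ion channel and transmitter receptor genes mostly fell. Of 40 voltage-gated potassium channel genes, 32 fell and 1 rose, with a median of -0.48 against 0.02 for all genes. Kcna2, the delayed rectifier of large sensory neurons and their axons, was at 469, 561 and 655 CPM naive and 129, 325 and 369 CPM injured, a change of -0.88 (adjusted p = 0.000533, SE 0.13). Kcns1, a silent subunit that modifies Kv2 channels, was at 42.9, 51.2 and 62.7 and 24.5, 31.1 and 38.4 CPM (-0.75). In both genes no injured library reached the lowest naive one. The accessory subunits Kcnip1 and Kcnab2 fell by 0.63 and 0.40. Kcnq3, which carries the M-current, was the exception at 0.37, higher in 9 of 9 animals; without wt-146, 2 members rose. Within the 3 animals of lower ribosomal share 18 members fell, and within the other 6 animals 12, with medians of -0.50 and -0.47.

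Of 19 sodium channel genes, 14 fell and 1 rose (median -0.38). Scn1a, the Nav1.1 channel, was at 109.9, 156.2 and 208 CPM naive and 71.1, 98.2 and 138 CPM injured, a change of -0.57 (adjusted p = 0.000147, SE 0.07). Scn8a (Nav1.6) and the beta subunit Scn4b fell by 0.38 and 0.53, and the nociceptor channels Scn10a (Nav1.8) and Scn9a (Nav1.7) by 0.53 and 0.27. Nalcn, the sodium leak channel, fell by 0.62. Fgf11, an intracellular FGF that binds sodium channels, was the exception, at 7.99, 8.87 and 15.8 CPM naive and 18.3, 26.2 and 63.1 CPM injured (1.47).

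Of 32 leak, inward rectifier and calcium-activated potassium channels, 15 fell and 3 rose. Kcnk1, Kcnn2 and Kcnj3 fell by 0.74, 0.69 and 0.53. Kcnk16, a leak channel known from pancreatic islets, was at 0.0189, 0.0715 and 0.225 CPM naive and 1.15, 2.89 and 8.59 CPM injured, a log2 fold change of 5.02 (adjusted p = 4.87e-05, SE 0.49). Of 22 calcium channel genes 10 fell and 2 rose. Cacna2d1, the subunit that gabapentin binds, was at 279, 319.7 and 459 CPM naive and 463, 692 and 1271 CPM injured (0.99), while Cacna1c (Cav1.2) and Cacng2 fell by 0.39 and 0.44. Of 42 transduction channels 19 fell and 6 rose. Asic3, an acid sensor, fell by 0.56 with sides that did not overlap, and Hcn2, a pacemaker channel, by 0.47. Trpv2 rose by 0.26, and the cold sensor Trpm8 fell by 0.66 (adjusted p = 0.0283; 0.0652, 0.0504 and 0.0694 without wt-139, wt-172 or wt-175).

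**Figure D4:**
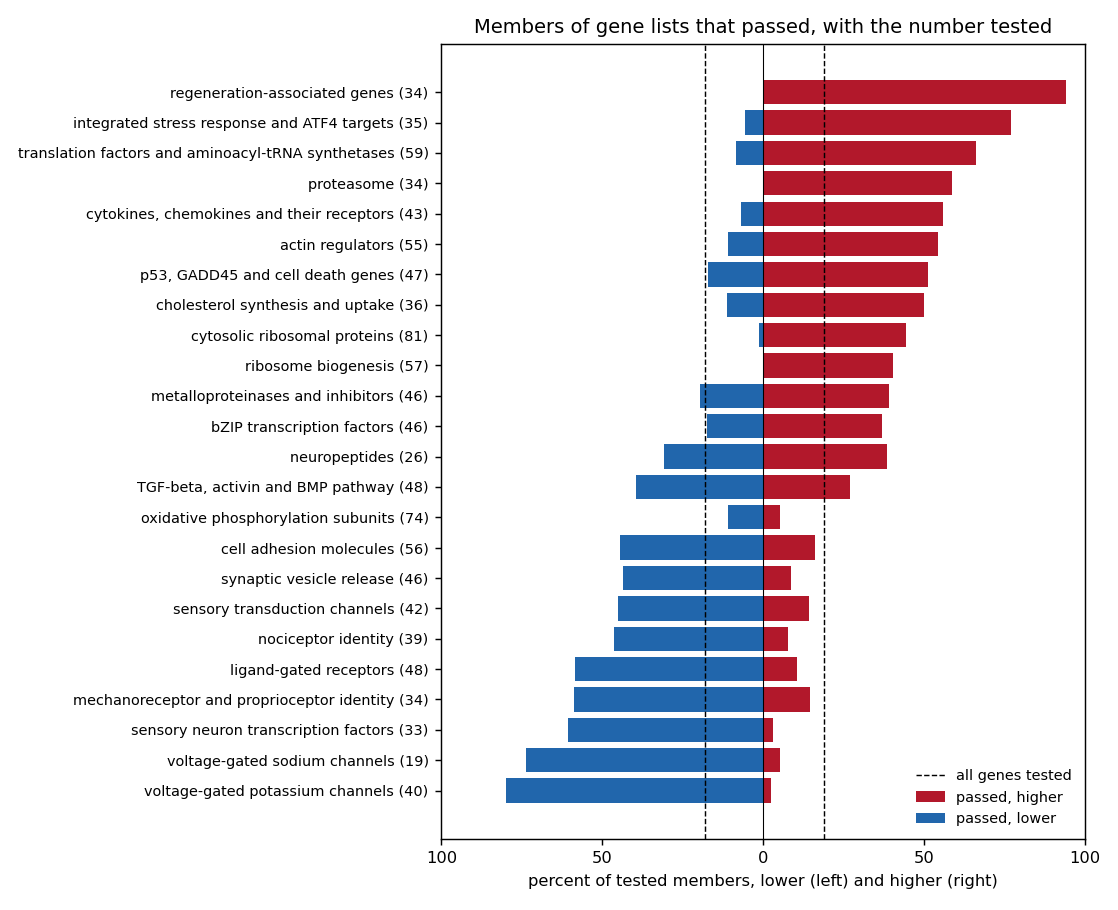
Share of the tested members of 24 gene lists that rose (right) and fell (left) at an adjusted p under 0.05, in percent, with the shares over all genes tested (19.0% and 18.2%) as reference lines. Voltage-gated potassium channels (80.0% fell) and sodium channels (73.7% fell) lie at one end, and regeneration-associated genes (94.1% rose) and genes of the integrated stress response (77.1% rose) at the other.

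Of 48 ligand-gated and metabotropic receptors for GABA, glutamate, glycine and acetylcholine, 28 fell and 5 rose (3 rose without wt-141, wt-172, wt-175 or wt-195), with a median of -0.38. Chrna7, Grm4 and Gria2 fell by 0.63, 0.64 and 0.67. Gabra5, a GABA-A receptor subunit, was at 2.97, 4.19 and 5.64 CPM naive and 6.78, 13.0 and 20.6 CPM injured (1.68), and Chrna5, a nicotinic subunit, at 0.208, 0.365 and 0.567 and 1.74, 2.43 and 6.32 CPM (2.81). Of 40 amine and purine receptor and uptake genes, 20 fell (13 without wt-172) and 6 rose. The serotonin receptors Htr1d and Htr7 fell by 0.45 and 0.84, while the serotonin receptor Htr1f was among the rises, as was the transporter Slc6a4.

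Of 46 synaptic vesicle genes, 20 fell and 4 rose, with a median of -0.17. Syt3, a synaptotagmin, was at 24.1, 32.2 and 37.1 CPM naive and 11.2, 17.7 and 22.1 CPM injured (-0.85), and Sv2b and Rab3a fell by 0.51 and 0.38. Syt4, a synaptotagmin of dense-core vesicles, rose by 0.53. Of 58 genes of cAMP, cGMP and G protein signalling, 27 fell and 8 rose (5 without wt-139, wt-141 or wt-172). Prkcb and Adcy1 fell by 0.40 and 0.60, while Pde1a, a calcium-activated phosphodiesterase, rose by 2.12 with sides that did not overlap.

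Falls outnumbered rises both among marker genes of nociceptors and among those of touch or position neurons. Of 34 mechanoreceptor and proprioceptor genes 20 fell and 5 rose (median -0.34), and of 39 nociceptor genes 18 fell and 3 rose (median -0.49). Scn10a, the Nav1.8 channel of nociceptors, was at 1536, 1748 and 1905 CPM naive and 497, 1256 and 1716 CPM injured, lower in 9 of 9 animals though the sides overlap. The nociceptor count was sensitive to single animals: 10 fell without wt-139 or wt-172, 11 without wt-175, and 25 without wt-176. In wt-176 the median log2 ratio of the nociceptor list was -1.95, against -0.60 to -0.05 in the other 8 animals. Its mechanoreceptor list had a median of -0.23, within the range of the other animals (-0.45 to -0.18). Without wt-176 the nociceptor median was -0.32.

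**Figure D5:**
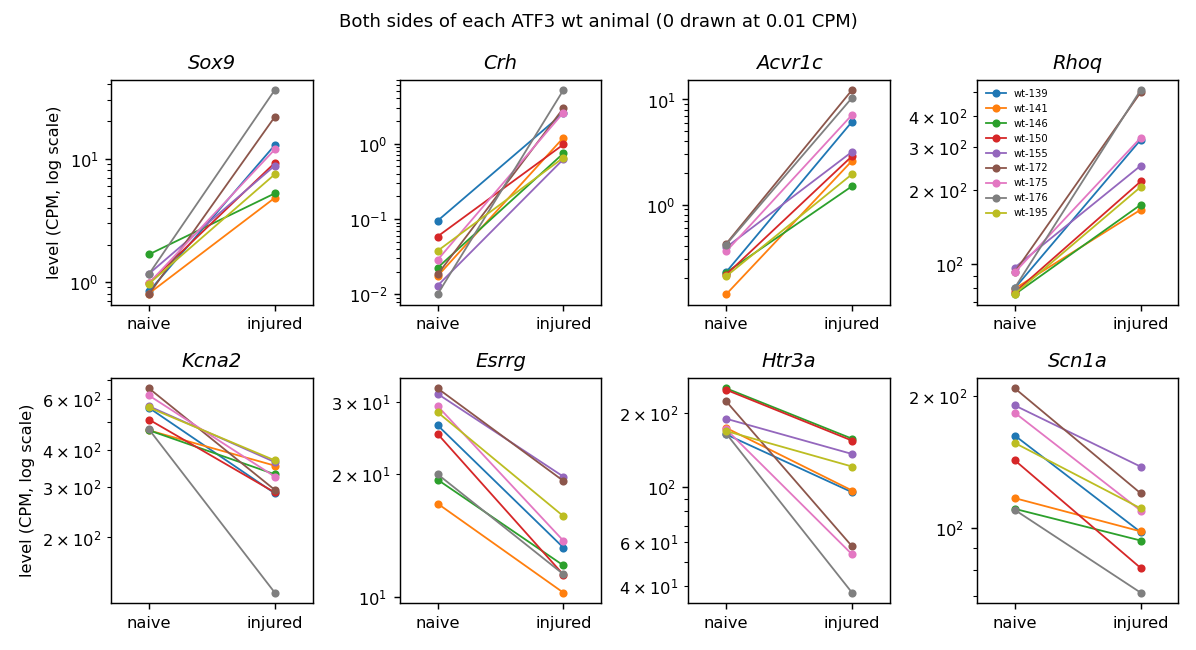
Level in CPM on a log axis in the naive and injured library of each animal, joined by a line, for Sox9, Crh, Acvr1c and Rhoq (top) and Kcna2, Esrrg, Htr3a and Scn1a (bottom), with a level of 0 drawn at 0.01 CPM. Every line rises in the upper panels and falls in the lower ones, and the sides overlap for Esrrg and Scn1a and for none of the other 6.

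Among cytoskeletal genes, rises outnumbered falls in the actin and tubulin lists. Of 55 actin regulators, 30 rose and 6 fell (3 without wt-175). Gap43, a growth cone protein, was at 112, 158 and 198 CPM naive and 195.2, 326 and 701 CPM injured (1.21). Flnc, an actin crosslinker known from muscle, was at 2.30, 4.28 and 7.504 and 11.5, 27.6 and 87.0 CPM (2.72), and Myo10, the filopodial motor, went from a median of 53.5 to 136 CPM (1.60). Tpm4 and Flna rose by 0.77 and 0.64. Of 48 small GTPases of the cytoskeleton and their regulators 18 rose and 7 fell (11 without wt-146). Rhoq was at 75.5, 80.0 and 97.0 CPM naive and 167, 252 and 511 CPM injured, a log2 fold change of 1.72 (adjusted p = 3.87e-05, SE 0.16), and Rhoc rose by 1.52.

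Of 16 tubulins 8 rose and 2 fell (4 without wt-176). Tubb6, a minor beta tubulin of the naive ganglion, was at 5.43, 6.16 and 7.23 CPM naive and 41.1, 62.3 and 183 CPM injured, a log2 fold change of 3.58 (adjusted p = 1.22e-06, SE 0.21), while the abundant Tubb2a rose by 0.58 and Tuba1c by 0.96. Of 39 microtubule-associated genes 12 rose (7 without wt-172) and 8 fell. The stathmins Stmn4 and Stmn2, which regulate microtubule turnover, rose by 2.08 and 0.61, and Vash2, which removes the tyrosine of alpha tubulin, by 1.33. Of 40 kinesin and dynein genes 6 rose and 12 fell, with Kif22, a chromosome-binding kinesin, the strongest at 2.01. Vim, vimentin, rose by 0.78 and Krt19, a keratin, by 1.87 from a median of 0.315 CPM.

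Guidance and adhesion genes moved both ways. Sema6a, a transmembrane semaphorin, was at 21.2, 25.1 and 28.7 CPM naive and 149.8, 219 and 669.9 CPM injured, a log2 fold change of 3.46 (adjusted p = 3.22e-06, SE 0.23). Among the plexins, its receptor Plxna4 rose by 0.96, while Plxna2 was among the falls. Sema7a fell by 0.71. Of the 31 semaphorins, plexins and neuropilins 7 rose and 9 fell (14 without wt-176). With all animals the shares were 22.6% and 29.0%, against 19.0% and 18.2% of all genes tested. Of 47 ephrin, netrin, slit and related genes 9 rose and 17 fell. Flrt3, an adhesion protein that binds UNC5 receptors and latrophilins, went from a median of 20.6 to 133 CPM (2.71), and the receptor Epha3 rose by 1.75. Slit2, a repellent and branching cue, fell by 0.49 with sides that did not overlap.

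Of 20 integrins 9 rose and 3 fell. Itga7, a laminin receptor needed for motor axon regrowth, was at 118, 145 and 180.4 CPM naive and 389, 587 and 1476 CPM injured, and Itgb1, its partner, rose by 0.79. Of 56 other adhesion genes 9 rose and 25 fell. Chl1, a neurite outgrowth protein of the L1 family, rose by 1.48, while Cntnap1, which builds the paranodal junction with glia, fell from 211 to 289 CPM in naive and 147 to 211 CPM in injured libraries (-0.47). Of 57 matrix genes 10 rose and 6 fell (17.5% and 10.5%), shares below the 19.0% and 18.2% of all genes tested. Among them Spp1 (osteopontin), Sdc1 (syndecan 1) and the laminin chain Lamb3 rose by 1.23, 1.87 and 2.79. Hapln1, which links hyaluronan nets, fell by 0.84.

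Of 46 extracellular proteases and inhibitors 18 rose and 9 fell, with both kinds among the rises. Adam8 and Mmp16, membrane metalloproteinases, went from a median of 8.04 to 54.2 CPM and from a median of 15.2 to 51.6 CPM. The inhibitor Timp1 rose by 3.26 and Serpinb1a, an elastase inhibitor, by 2.45. In all 4 genes the sides did not overlap.

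Of 26 neurotrophin, GDNF and IL-6 family genes 10 rose and 10 fell. Bdnf was at 33.6, 39.4 and 46.9 CPM naive and 51.0, 61.1 and 77.9 CPM injured, a log2 fold change of 0.69 (adjusted p = 6.21e-06, SE 0.05). Gfra1, the GDNF co-receptor, rose by 1.68, while Ntf3, neurotrophin 3, fell by 1.29 from a median of 0.563 CPM. Of 59 FGF, EGF, IGF, VEGF and PDGF family genes 13 rose and 15 fell (22.0% and 25.4%, against 19.0% and 18.2% of all genes). Csf1, the macrophage growth factor, was at 18.2, 25.6 and 31.1 CPM naive and 72.3, 106 and 309 CPM injured (2.27). Igfbp3 rose by 2.17 and Areg by 1.99, and Fgfr1 fell by 0.37.

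Of 48 genes of the TGF-beta superfamily 13 rose and 19 fell, and genes of activin signalling led the rises. Acvr1c, the type I receptor ALK7, was at 0.140, 0.227 and 0.423 CPM naive and 1.49, 3.18 and 12.3 CPM injured, a log2 fold change of 4.02 (adjusted p = 1.17e-06, SE 0.23). Inhbb, an activin subunit, was at 3.44, 4.504 and 6.03 and 12.5, 25.4 and 97.5 CPM, and Fst, follistatin, which traps activin, at 0.794, 1.27 and 1.77 and 12.8, 21.9 and 62.7 CPM. In these 3 genes every injured library lay above every naive one. The related genes Acvr1b and Inha were among the falls. The BMP target Id2 fell by 0.66 with sides that did not overlap. Of 45 Wnt pathway genes 8 rose (5 without wt-139, wt-150 or wt-175) and 8 fell, shares close to those of all genes.

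Annexins and calcium-binding genes gave 10 rises and 16 falls of 48. Anxa10, an annexin best known from the stomach, was at 0, 0.0143 and 0.0196 CPM naive and 2.50, 3.47 and 7.201 CPM injured (8.38), and Anxa1, an anti-inflammatory annexin, at 0.588, 2.96 and 8.85 and 9.62, 26.9 and 39.8 CPM (2.84). Camk1, a calcium/calmodulin kinase of growing axons, rose by 1.89. Of 38 genes of MAP kinase feedback and SOCS signalling 8 rose and 11 fell. Their shares were 21.1% and 28.9%, against 19.0% and 18.2% of all genes tested. The phosphatases Dusp9 and Dusp7 rose by 4.00 and 0.56.

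Genes for making protein rose broadly but by little. Of 59 translation factors and aminoacyl-tRNA synthetases, 39 rose and 5 fell, with a median of 0.21. Gars, the glycyl-tRNA synthetase, was at 197, 211 and 238 CPM naive and 258, 307 and 423 CPM injured, a log2 fold change of 0.55 (adjusted p = 0.000182, SE 0.07). Eif6, which keeps ribosomal subunits apart, rose by 0.50. Of 35 genes of the integrated stress response, which overlap with the synthetases, 27 rose and 2 fell, with a median of 0.37. Atf4, its transcription factor, was at 90.2, 110.2 and 119 CPM naive and 105, 146.2 and 201 CPM injured (0.43), and its targets Asns and Chac1 rose by 0.35 and 1.23. The unfolded protein response of the endoplasmic reticulum gave 6 rises and 4 falls of 25 genes. Its shares were 24.0% and 16.0%, against 19.0% and 18.2% of all genes tested.

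Of 81 cytosolic ribosomal proteins, 36 rose and 1 fell (23 rose without wt-139, and 2 fell without wt-139, wt-141, wt-150, wt-155 or wt-176), with a median of 0.17. Within the 3 animals of lower ribosomal share 1 rose, and within the other 6 animals 5, with medians of 0.16 and 0.17. Rpl27 was at 1.67, 2.27 and 2.82 CPM naive and 2.16, 3.01 and 4.28 CPM injured (0.47), and Rps28 rose by 0.31. Of 57 ribosome biogenesis genes 23 rose and 0 fell (1 fell when wt-139, wt-141 or wt-155 was left out, 2 without wt-176, and 3 without wt-146), among them Ddx21 and Nop56 at 0.28 and 0.29. Of 34 proteasome subunits 20 rose and 0 fell (10 to 13 rose without wt-139, wt-155, wt-172 or wt-195), led by Psmd8, at 57.1, 67.1 and 72.1 CPM naive and 70.7, 87.5 and 119 CPM injured (0.46). Many ribosomal protein genes have near-identical processed copies, so their counts are uncertain.

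Of 74 oxidative phosphorylation subunits, 62 did not pass, 4 rose (3 without wt-141, and 1 or 2 without any other animal) and 8 fell, among them Sdha by 0.18. Of 36 cholesterol genes 18 rose and 4 fell (8 without wt-176). Hsd17b7, an enzyme of the pathway, was at 40.1, 52.0 and 66.9 CPM naive and 111, 168 and 317 CPM injured (1.71), and Mvk and Ebp rose by 0.38 and 0.47. Abca1, which exports cholesterol, rose by 1.75, from a median of 148 to 393 CPM. Of 28 glycolytic genes 8 rose and 7 fell, with the regulator Pfkfb4 at 1.01. Of 28 amino acid transporters 10 rose and 5 fell, with Slc1a4 at 0.96 and Slc7a6 at 0.51.

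Cyp26a1 and Cyp26b1, enzymes of retinoic acid breakdown, moved in opposite directions, and their relative Cyp26c1 was too low to be tested. Cyp26a1 was at 0.0378, 0.0551 and 0.0978 CPM naive and 0.515, 1.07 and 2.80 CPM injured (4.28), while Cyp26b1 was at 6.73, 8.81 and 12.1 and 1.76, 3.21 and 6.78 CPM. Arg2, the mitochondrial arginase, rose by 1.94, from a median of 1.68 to 5.76 CPM. Of 36 antioxidant and metal genes 14 rose and 4 fell (7 without wt-176). Steap1, a metalloreductase, was at 1.04, 1.17 and 2.03 CPM naive and 3.04, 4.05 and 5.44 CPM injured, and Prdx6 rose by 0.41. Of 49 autophagy and lysosome genes 17 rose and 7 fell. Mcoln2, a lysosomal cation channel, was at 0.135, 0.235 and 0.454 CPM naive and 1.72, 3.12 and 5.39 CPM injured (3.62), and Cd63 rose by 1.52.

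Of 47 genes of the p53 pathway and cell death, 24 rose and 8 fell, with a median of 0.26. Gadd45a, a stress sensor, was at 12.3, 15.1 and 21.6 CPM naive and 45.3, 77.96 and 212 CPM injured, a log2 fold change of 2.51 (adjusted p = 4.87e-05, SE 0.24). Cdkn1a, the cell cycle inhibitor p21, rose by 2.02 and Pmaip1, the death activator NOXA, by 2.08. Bcl2, which protects from apoptosis, was at 57.4, 65.6 and 73.6 CPM naive and 20.9, 50.6 and 55.7 CPM injured (-0.63). In these 4 genes the sides did not overlap. Of 27 heat shock genes 7 rose and 3 fell (5 or 6 without wt-146, wt-155 or wt-176).

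Macrophage markers rose as a list, with 15 of 16 higher and a median of 1.43. Their sum was 7.204 to 67.2 CPM on the naive and 38.3 to 142 CPM on the injured side, and higher on the injured side in 9 of 9 animals. The smallest step was in wt-141, from 67.2 to 67.9 CPM, and the animal with the most on the injured side was wt-146, from 24.3 to 142 CPM. C1qa, a complement subunit that macrophages make, was at 0.184, 0.919 and 2.29 CPM naive and 2.04, 4.23 and 6.69 CPM injured (2.11), and Cx3cr1, the fractalkine receptor, at 0.0735, 0.386 and 0.960 and 1.41, 2.06 and 4.92 CPM (2.47). Trem2, a lipid receptor of macrophages, went from a median of 0.0781 to 0.451 CPM.

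Rises outnumbered falls in 2 further immune lists, which share Cx3cr1 (cytokines) and C1qa, C1qb and C1qc (complement) with the macrophage markers. Of 43 cytokines, chemokines and receptors 24 rose and 3 fell, with a median of 0.63. Ccl7 and Ccl8, which attract monocytes, went from a median of 0.735 to 2.11 CPM and from a median of 0.0189 to 0.363 CPM, and the receptors Il13ra1 and Il1r1 rose by 1.29 and 1.13. Of 42 complement, MHC class I and interferon genes 19 rose and 1 fell (2 without wt-146 or wt-176), among them C4b, from a median of 16.5 to 38.6 CPM. The macrophage markers rose beside these 2 lists, and their part in them was not tested.

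Markers of other cells were read in the same way. Of 14 satellite glia markers 4 rose and 2 fell, and their sum was 805 to 1651 CPM naive and 1100 to 2374 CPM injured, higher on the injured side in 8 of 9 animals. Glul, glutamine synthetase, rose by 0.58 and Fabp7 by 0.34. Of 14 Schwann cell markers 2 rose (1 without wt-139, wt-146, wt-155, wt-172 or wt-175). Of 11 neutrophil markers Ly6g rose (2 rose without wt-141), and the list summed to 13.6 to 219 CPM naive and 35.7 to 639 CPM injured. Of 13 endothelial, 11 pericyte, 7 red blood cell, 5 lymphocyte and 3 muscle markers tested, 0 passed with all 9 animals; without wt-176, 1 endothelial and 2 pericyte markers fell, and without wt-141 or wt-146, 1 pericyte marker. The sum of the pericyte and smooth muscle markers was higher on the injured side in 1 of 9 animals, at 89.2 to 181 CPM naive and 88.6 to 216 CPM injured. Such a sum is weighted to the abundant markers. The median log2 fold change of the 11 tested markers was 0.05, and their median ratio ran from -0.48 in wt-146 to 1.19 in wt-172. Of 11 fibroblast markers 1 fell, and 1 rose without wt-146 and 3 without wt-176. Of 12 proliferation markers 6 rose (2 without wt-195, 3 without wt-146, wt-150, wt-175 or wt-176), at low levels: Cdk1 went from a median of 0.435 to 0.886 CPM, and Top2a rose by 1.26 (adjusted p = 0.0236; 0.0584, 0.0616 and 0.0548 without wt-172, wt-176 or wt-195).

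Genes that do not encode proteins also changed. Of 402 lincRNA genes 54 rose and 55 fell, and of 406 antisense genes 55 rose and 57 fell, shares below those of the 14888 protein-coding genes, of which 3045 rose and 3083 fell. Processed pseudogenes were uneven, with 201 rises and 30 falls of 1311. Junos, the transcript divergent from Jun, rose by 0.92 on the log2 scale and Haglr, in the Hoxd cluster, fell by 0.94. Hsp25-ps1 and Cd63-ps, copies of Hspb1 and Cd63, rose by 1.04 and 1.56, and counts of such near-identical copies are uncertain. Of 208 genes picked from the lists and the ranking, 19 overlap another gene whose counts could spill into theirs, since the strand setting of the counting is not given: these include Sema5b, Glb1l2, Fosl1, Stat5a, Kcnip1, Gabra5, Flrt3, Lamb3, Hapln1, Timp1, Arg2, Nop56, Rps28 and Cx3cr1.

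A part of this response was larger than in the animals without neuronal ATF3. All 8 cKO animals were labelled Adv-Cre+, against 3 of the 9 controls. The genotypes therefore differ in Cre as well as in ATF3, and the part of Cre was not tested. The difference of the crush effect passed for 1474 of 19565 genes (7.53%), being higher in wt for 839 (4.29%) and lower for 635 (3.25%). Of the 637 rises of at least 2-fold in wt, 270 (42.4%) were larger than in the cKO and 2 were smaller. Their median log2 fold change was 1.47 in wt over all 637, and 0.50 in the cKO over the 532 with a value there. The 2 medians thus do not cover the same genes. Since the 637 genes were chosen for a large rise in wt, the gap of the medians is in part fixed by the choice. The test of the difference uses the same wt libraries, so the 270 against 2 is favoured by the choice as well. The counts over all 19565 genes do not depend on it. Of the 56 falls of at least 2-fold, chosen in wt in the same way, 9 (16.1%) were larger in wt. The medians were -1.11 in wt over all 56, and -0.55 in the cKO over the 55 with a value there.

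Gene by gene, the wt response split into rises that differed between the genotypes and rises for which no difference was found. Gal rose by 2.98 in wt against 0.25 in the cKO (difference 2.73, SE 0.45, adjusted p = 0.00179). Gap43 rose by 1.21 against -0.05 (1.26, adjusted p = 0.00179), Flnc by 2.72 against -0.18 (2.88, 0.000878), and Acvr1c by 4.02 against 0.55 (3.44, 4.09e-05). For Bdnf the difference was -0.18 (SE 0.09, adjusted p = 0.28) and for Spp1 -0.06 (SE 0.23, 0.927). Sprr1a was at 194.8 ± 137 CPM (SD, n = 9) on the injured side in wt and at 5.34 ± 2.70 CPM (SD, n = 8) in the cKO. Its naive level in the cKO was 0.00431 CPM, too close to 0 for a difference of fold changes to be read. Steap1 and Avpr1a, a vasopressin receptor, were the rises of at least 2-fold that were smaller in wt, Steap1 by 1.59 against 2.43. Ntf3 fell in wt by 1.29 and rose in the cKO by 1.07 (difference -2.36, adjusted p = 0.000152). Kcna2 fell by 0.88 in wt, with -0.32 in the cKO (difference -0.56, adjusted p = 0.029), while for Htr3a the difference was -0.15 (SE 0.23, adjusted p = 0.774).

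The crush effect was also compared between the 6 female and the 3 male controls, which differ in Cre as well. By edgeR's interaction test 0 of 18288 genes passed. The number that passed was also 0 with RLE scaling and with no filter on low counts. In the main fit 149 genes (0.815%) had an unadjusted p under 0.05, below the 1 in 20 expected if no gene differed. On simulated counts with the same animals and sides, changes of 0.5 on the log2 scale were called in 0% of cases. Changes of -1 and 1 were called in 65.3% and 70%. In that simulation the injured male counts of the changed genes were copies of the naive ones, and all animals responded alike. The real animals differed in response size, so these rates are not the power of the real test. Neither the count of 0 nor the low share of small p-values shows that females and males responded alike.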

How the data were processed

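Each library is dissociated L4 to L6 ganglion cells of 1 side of 1 animal. The authors deposited raw counts of 48795 Ensembl gene IDs in 34 libraries. The submitters' processing notes name bcl2fastq 2.20, STAR, HTSeq and the build GRCm38. Not given in the sources used here are the versions of STAR and HTSeq, the release of the annotation and whether counting used strand. The library kit was stranded, per the labels' protocols. Counts are whole-gene counts, so exon 3 of Atf3 could not be read by itself. The annotation gave a symbol to 48435 IDs, and the 360 others held 0.031% of the counts. Rows without an ID and columns of no sample numbered 0.

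Counts were tested with edgeR 4.0.16 (R 4.3.3, limma 3.58.1) by the robust quasi-likelihood F-test with animal and side as terms, TMM scaling and filterByExpr by side, over the 18 wt libraries. The 18288 genes tested hold 99.94% of the counts. P-values were adjusted over all genes tested (Benjamini-Hochberg, threshold 0.05), and SE is the absolute log2 fold change divided by the root of F. The difference from the cKO was the side by genotype interaction over all 34 libraries, and that of females and males the side by sex interaction, both with an animal term. Ratios per animal use CPM with a prior count of 2. DESeq2 1.42.0 was an alternative.

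The sides are paired because both come from 1 animal. The deviations of its libraries from the side means had a median correlation of 0.56 (0.259 to 0.813; 9 of 9 over 0.1), and 6 injured libraries were closest to their own naive library. No libraries were alike within sampling noise, the closest having a chi-square per degree of freedom of 20.3.

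On simulated counts of 18495 genes for the paired test, changes of -1, -0.5, 0.5 and 1 were called in 97.9%, 78%, 78% and 98% of cases and unchanged genes in 0.0601%. In the simulation few genes changed, all genes had the same spread, and every animal responded alike. In the real data 37.2% of the genes passed and the animals differed in response size, so these rates are not those of the real test.

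The members and the 60 gene and 12 marker lists were chosen with earlier results of these data known. Lists were described by their counts and medians. Genes named are protein-coding genes that passed, reached 5 CPM on the higher side and moved the same way in 9 of 9 animals: the 15 largest rises and falls. To these were added Atf3, up to 4 members of each list by smallest p, and members shown for their role. Some genes that this rule picks are not reported here. Overlapping genes, promoter windows and coordinates come from annotation of GRCm38. Depth limits precision, and p-values measure the spread between these animals. B2-SINE elements were not analysed here.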

Additional observations from a re-analysis of the deposited data

Results flagged for a closer look

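Of 210 results over 9 animals, 17 had 1 animal far from the other 8 in its log2 ratio of injured over naive; chance alone flags about 1 in 20. The animal was wt-141 for 2 rises. Its ratio for Wfdc3 was 2.65, against 4.02 to 5.38 in the others, and for Mcoln2 1.89, against 3.20 to 4.05.

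The other 15 came from wt-176. For subunits of nicotinic receptors its ratios were far below the rest: Chrnb3 at -4.68 (others -2.03 to -0.541), Chrnb4 at -5.00 (-2.19 to -0.206) and Chrna6 at -3.76 (-1.43 to -0.129). Its falls were also deeper for Tac1 (-2.55), Scn10a (-1.78), Nalcn (-2.01), Scn9a (-0.74), Kcnj3 (-1.12) and Hapln1 (-1.80). Sema7a fell less in it than in any other animal (-0.198; others -1.06 to -0.634). Its rises were larger for Fgf11 (2.90), Kcnq3 (0.951), Gabra5 (2.78), Gfra1 (2.92) and Eif6 (1.03). The injured library of wt-176 was also the smallest, with 35732193 counts.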

How the results depend on the processing

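The fit paired by animal gave 6798 calls. Without the replicate block 4463 genes passed, 2459 higher and 2004 lower, and 99.3% of these were also calls of the paired fit; the difference from the cKO passed for 556 genes without the block against 1474 with it. With fewer animals the counts fell: the 6 females alone gave 3123 (1608 higher, 1515 lower), the 3 males alone 132 (115 and 17), the 3 animals of lower ribosomal share 2059 (1271 and 788), and the other 6 animals 2431 (1398 and 1033). These fits hold fewer samples. Leaving out each animal gave 5288 to 7003 calls, 2543 to 3343 higher and 2692 to 3858 lower, lowest in total without wt-172. RLE scaling (6837 calls), DESeq2 (7236), no filter on low counts (6129) and all 34 libraries in 1 fit (8003) stayed within 1.5 times the main count. So did counts without 3 ribosomal loci (6879), of which 1 had no counts. With another locus in its place, chosen after seeing the data, 6846 genes passed. RLE scaling gave 3210 rises and 3627 falls, and the median of all genes moved by 0.0237 on the log2 scale at most in any of these fits. Of the 208 named genes 0 changed direction in any of them; 12 no longer passed without the block, 11 without a filter, 18 in females alone and 158 in males alone.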

Other observations

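Of 16 circadian clock genes 2 rose (1 when wt-141, wt-150, wt-155, wt-172, wt-175, wt-176 or wt-195 was left out) and 5 fell. Of 45 RNA-binding and splicing regulators 9 rose and 5 fell (8 without wt-176), of 49 chromatin regulators 10 rose and 12 fell, and of 35 genes of RNA polymerase III 8 rose and 5 fell. Against 19.0% and 18.2% of all genes tested, the shares that rose were 12.5% to 22.9%. The shares that fell were 31.2% for clock genes, 24.5% for chromatin regulators, 14.3% for RNA polymerase III and 11.1% for RNA-binding genes.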
